A study of Mus musculus with 18 samples.

Results

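Insulin and IGF signalling was followed through 10 genes, taken by symbol from the count files of 18 mouse retina libraries. These were the ligand genes Igf1 and Igf2, the receptor genes Insr, Igf1r and Igf2r, the adaptor genes Irs1 and Irs2, and the binding protein genes Igfbp2, Igfbp3 and Igfbp5. They are 10 of the 35006 gene names in each file, and all 10 were among the 16183 genes that passed the filter on low counts. Poly(A) RNA was sequenced from the retinas of male mice in 4 groups. WT mice were C57BL/6J animals that drank water (n = 3), and Akita mice were C57BL/6-Ins2Akita/J animals, heterozygous for a mutant Ins2 allele, that also drank water (n = 4). The WT + NACET (n = 6) and Akita + NACET (n = 5) groups drank NACET, the ethyl ester of N-acetylcysteine, at 0.33 mg/mL, a daily dose of 50 mg/kg. In all 4 groups, water or NACET was given from 4 to 24 weeks of age, when the retinas were taken. Akita is a monogenic model in which misfolded insulin damages the pancreatic β cells, so that diabetes and the Ins2 genotype cannot be told apart between these groups. The labels do not say how many animals or eyes gave each library, and the p-values measure only the spread between these libraries.

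Insulin and the insulin-like growth factors act through related receptor tyrosine kinases, encoded by Insr and Igf1r. The activated receptors phosphorylate the adaptors encoded by Irs1 and Irs2, which recruit PI3K and pass the signal to AKT, mTOR and the FOXO factors. The product of Igf2r carries IGF-2 to lysosomes and has no kinase activity, and the binding proteins hold the ligands outside the cell and set how much reaches the receptors. In the retina this system is known for supporting neurons and vessel growth.

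Transcripts of the insulin genes were absent or scarce in these libraries. Ins1 had 0 counts in all 18 libraries, which allows a level of up to 0.170 to 0.249 CPM (counts-per-million of the library) depending on the library, for counting error only. Ins2 had between 0 and 9 counts per library and 0 counts in 4 of them, so its level could not check the genotype. The tissue label was checked against marker genes fixed for this report. The 8 rod markers summed to between 85160 and 200358 CPM and none of them was at 0, with the highest sum in Akita replicate 4. Markers of neighbouring tissue were present too. The 10 pigment epithelium markers had median sums of 221 CPM in WT, 1078 in WT + NACET, 108 in Akita and 659 in Akita + NACET. The 7 lens markers had medians of 5.52 to 34.9 CPM, with highest sums of 18.9 CPM in WT, 23962 in WT + NACET, 2859 in Akita and 1261 in Akita + NACET. Their part in the results below was not tested. Library depth was 11495596 to 17814479 gene counts once ribosomal RNA genes were removed.

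Promoter sequence is shown for Igf2, Igf1 and Irs1, the members with a called difference in at least 1 comparison, since NACET is studied as an activator of NRF2, which binds antioxidant response elements (ARE). The sequences are RefSeq windows (GRCm38.p6) of which the 250 bases before and the first 25 bases after a transcription start are printed, 5′ to 3′ on the strand of the gene. Each was also found once in mm9, the build of the deposited counts. The Igf2 window lies on the minus strand at chr7:142661247-142661521 (mm9 chr7:149847152-149847426) and belongs to 1 of its 4 annotated starts, printed because it is the only one of the 4 with an ARE match. The Igf1 window lies on the plus strand at chr10:87860861-87861135 (mm9 chr10:87323606-87323880). The Irs1 window lies on the minus strand at chr1:82291415-82291689 (mm9 chr1:82287990-82288264). Capitals mark a match to the ARE letters TGACNNNGC on either strand.
Igf2: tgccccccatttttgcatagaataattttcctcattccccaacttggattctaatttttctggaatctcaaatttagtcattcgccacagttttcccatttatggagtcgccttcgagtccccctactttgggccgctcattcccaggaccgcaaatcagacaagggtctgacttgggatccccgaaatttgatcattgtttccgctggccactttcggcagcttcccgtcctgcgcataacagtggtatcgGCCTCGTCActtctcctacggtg
Igf1: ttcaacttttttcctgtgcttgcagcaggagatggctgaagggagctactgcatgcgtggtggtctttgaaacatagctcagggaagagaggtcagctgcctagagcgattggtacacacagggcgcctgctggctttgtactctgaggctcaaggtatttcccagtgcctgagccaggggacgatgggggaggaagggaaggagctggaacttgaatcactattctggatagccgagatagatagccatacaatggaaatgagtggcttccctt
Irs1: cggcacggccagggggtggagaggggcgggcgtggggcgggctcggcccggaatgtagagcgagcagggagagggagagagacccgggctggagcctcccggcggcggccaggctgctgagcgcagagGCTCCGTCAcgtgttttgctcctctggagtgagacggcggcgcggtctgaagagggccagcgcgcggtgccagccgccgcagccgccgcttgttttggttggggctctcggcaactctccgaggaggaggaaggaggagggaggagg

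The ARE letters stood at bases 253 to 261 of the printed Igf2 window and at bases 129 to 137 of the Irs1 window, counted from 1 at the first base printed, and Igf1 had none in its window. Windows were at hand for 9 of the 10 members, 13 in all, and 4 of the 13 held an ARE match (the others belong to Irs2 and Igfbp2), against 12.4% of the 32851 windows of all genes. The FOXO letters GTAAACA, searched on both strands, were in 0 of the 13 windows and in 3.65% of all windows. A match describes letters only and was not tested as a binding site.

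The 10 genes spanned a wide range of levels when CPM was divided by the exon length of each gene in kilobases (RPKM). Over all 18 libraries, Igf1r was highest at 15.5 ± 2.89 RPKM (SD, n = 18), at the 76.4th percentile of tested genes. Igfbp2 followed at 13.4 ± 3.87 RPKM and Igfbp5 at 5.52 ± 1.63 RPKM. The growth factor genes themselves were lower, with Igf1 at 3.24 ± 0.749 RPKM and Igf2 at 2.55 ± 0.722 RPKM. Next came the receptor genes Insr (1.90 ± 0.330 RPKM) and Igf2r (1.26 ± 0.184 RPKM). The adaptors Irs1 (0.841 ± 0.184 RPKM) and Irs2 (0.725 ± 0.187 RPKM) were lower still, and Igfbp3 was lowest at 0.471 ± 0.192 RPKM, the 11.7th percentile. Within this order, Igf1r and Igfbp2, Igf1 and Igf2, Igf2 and Insr, and Irs1 and Irs2 each differed by less than 1 SD of the more variable gene. With the longest transcript as the length, Igfbp2 (18.9 RPKM) stood above Igf1r (16.6 RPKM). By exon length, the order of the ligands changed with the group, with Igf1 at 3.81 ± 0.681 and Igf2 at 2.04 ± 0.209 RPKM in WT (SD, n = 3), and Igf1 at 2.50 ± 0.626 and Igf2 at 3.40 ± 0.282 RPKM in Akita (SD, n = 4). With the longest transcript, the Akita means were 3.48 ± 0.872 for Igf1 and 3.95 ± 0.328 RPKM for Igf2, less than 1 SD of Igf1 apart.

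**Figure D1:**
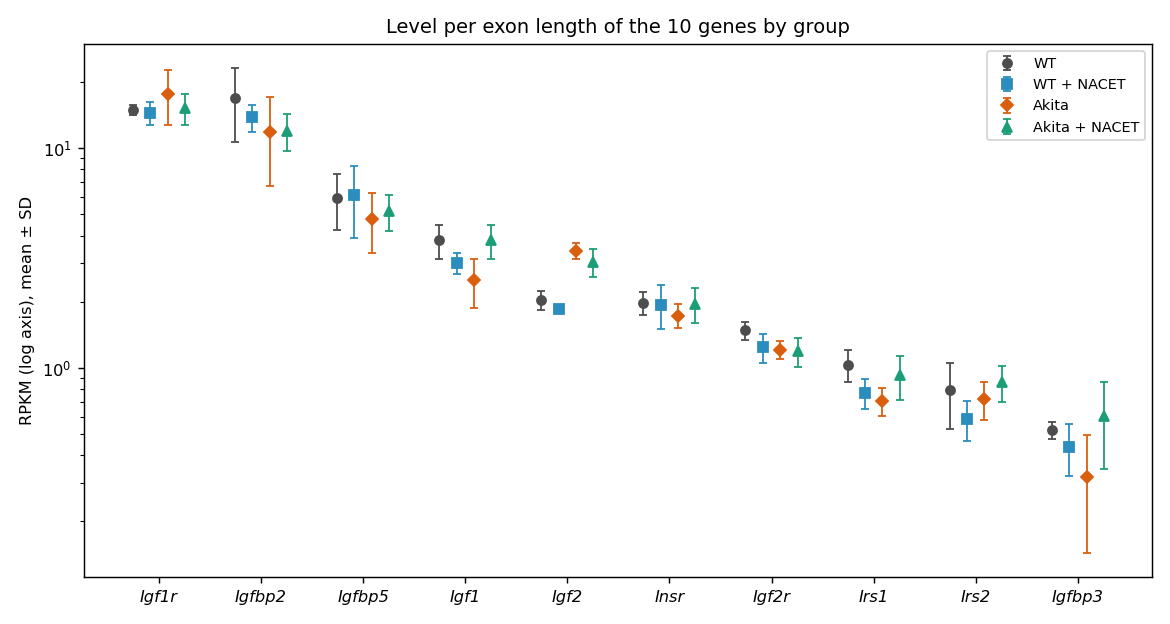
Level of each gene per exon length in RPKM, on a log axis, as the mean of each group with its SD (WT n = 3, WT + NACET n = 6, Akita n = 4, Akita + NACET n = 5). Igf1r and Igfbp2 lie above 10 RPKM on average over all libraries and Igfbp3 lies lowest, and the order of Igf1 and Igf2 is not the same in all groups.

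Between groups, levels are given in CPM with TMM-scaled library sizes, and differences as log2 fold changes with their SE from the edgeR quasi-likelihood test, called at a Benjamini-Hochberg adjusted p of at most 0.05 over all tested genes. The first comparison asked what differed in the retina of diabetic mice. In Akita vs WT 2 of the 10 members were called, where 7.64% of all tested genes were, a share that fell to 0 genes without WT replicate 1 or 2. Igf2 was higher and Igf1 was lower in Akita. The other 8 members did not pass the test.

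Igf2, which encodes a growth factor best known for its part in fetal growth, was 1.67-fold higher in Akita than in WT. It stood at 11.7, 12 and 9.88 CPM in the 3 WT libraries. In Akita it stood at 20.5, 17.4, 19.3 and 17.4 CPM. All 4 Akita libraries therefore lay above all 3 WT libraries, with means of 18.7 ± 1.55 (SD, n = 4) and 11.2 ± 1.15 CPM (SD, n = 3). The fitted log2 fold change was 0.74 ± 0.13 (SE, adjusted p = 0.0117), and its p ranked Igf2 at position 14 of the 16183 tested genes. The call was lost without WT replicate 1 (0.77, adjusted p = 0.0968), without WT replicate 2 (0.79, adjusted p = 0.0544) and with the non-exonic share of reads, described with Igf1, added to the model (0.68, adjusted p = 0.278). Each of these fits called 0 of all genes it tested.

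The same gene was higher in Akita among the mice that drank NACET. Its level in WT + NACET had a low of 9.65, a median of 10.1 and a high of 10.8 CPM. With NACET the Akita libraries were at 20.9, 16.0, 16.0, 16.0 and 14.4 CPM. The groups did not overlap, and replicate 1 of Akita + NACET stood above the other 4. This gave 0.71 ± 0.10 on the log2 scale (SE, adjusted p = 0.000249), at position 38 by p, and it was called in every alternative fit of this comparison. Igf2 was the 1 member called in Akita + NACET vs WT + NACET, where 13.3% of tested genes were called. The comparisons of Akita with WT, untreated and treated, share no library.

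NACET was not followed by a called difference of Igf2 in either genotype. For Akita + NACET vs Akita the log2 fold change was -0.17 ± 0.11 (95% interval -0.39 to 0.06, adjusted p = 0.329), and in WT + NACET vs WT it was -0.14 ± 0.12 (95% interval -0.38 to 0.11, adjusted p = 0.545). The effects in the genotypes differed by -0.03 (95% interval -0.37 to 0.31, adjusted p = 0.911). A contrast of both Akita groups with both WT groups, chosen after these values were seen, gave a log2 fold change of 0.72 ± 0.08 (adjusted p = 3.87e-05, position 7 by p) and no overlap between the 9 Akita and the 9 WT libraries. In it Igf2 was the 1 member called, where 2.65% of tested genes were, and it kept its call in all 25 alternative fits, with log2 fold changes of 0.68 to 0.75. The non-exonic share in the model left it at 0.72 (adjusted p = 5.68e-05).

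Igf2 spans chr7:149836673-149852721 on the minus strand of mm9, and Ins2 spans chr7:149864561-149885415, so that the gene models lie 11.8 kb apart. Of the 18 tested genes within 1000 kb of Ins2, Igf2 was the 1 called in Akita vs WT (7.64% of all tested genes) and in the contrast of both Akita with both WT groups (2.65%). In Akita vs WT, other genes near Ins2, named after their values were seen, had no overlap between the groups and missed the threshold. Mrpl23 (log2 fold change -0.96 ± 0.30, adjusted p = 0.0517) and Th (-0.99 ± 0.35, adjusted p = 0.0776) were lower in Akita. R74862 (0.48 ± 0.16, adjusted p = 0.0632), Brsk2 (0.31 ± 0.16, adjusted p = 0.224), Nap1l4 (0.15 ± 0.09, adjusted p = 0.290) and Tollip (0.10 ± 0.07, adjusted p = 0.375) were higher. The share of all tested genes without overlap was not counted. In Akita + NACET vs WT + NACET each of these genes overlapped between the groups and none was called. Their log2 fold changes there were 0.10 for Mrpl23, -0.06 for Th, -0.19 for R74862, 0.04 for Brsk2, -0.07 for Nap1l4 and 0.05 for Tollip. In Akita + NACET vs WT + NACET, Ctsd (log2 fold change -0.50 ± 0.10, adjusted p = 0.00476) and Cd81 (-0.25 ± 0.08, adjusted p = 0.0414) were called beside Igf2, 3 of 18 where 13.3% of all tested genes were. Ctsd was higher in WT + NACET than in WT (0.49 ± 0.12, adjusted p = 0.0434) and stood at 0.09 ± 0.13 in Akita vs WT (adjusted p = 0.694). The Akita allele at Ins2 is present in every Akita library and absent from every WT library, so differences tied to this stretch of chromosome and differences tied to diabetes cannot be told apart. The exons of Igf2 overlap those of Igf2as on the other strand, and counting without strand cannot separate them; Igf2as had 0 to 6 counts per library, against 142 to 307 for Igf2.

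Since fibroblasts are known to express Igf2, the markers of fibroblasts, choroid and sclera were set beside it. None of the 8 markers was at 0 in all libraries, and 0 of the 7 tested were called in Akita vs WT or Akita + NACET vs WT + NACET. Their summed level had a median of 7.95 CPM in WT (6.53 to 120), 7.76 in WT + NACET (4.93 to 140), 30.2 in Akita (9.03 to 98.5) and 25.1 in Akita + NACET (6.62 to 32.7). The medians were higher in both Akita groups, as Igf2 was, while the ranges overlapped. Their part in the Igf2 result was not tested. In bulk RNA, fewer cells of a type and less RNA per cell cannot be told apart.

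**Figure D2:**
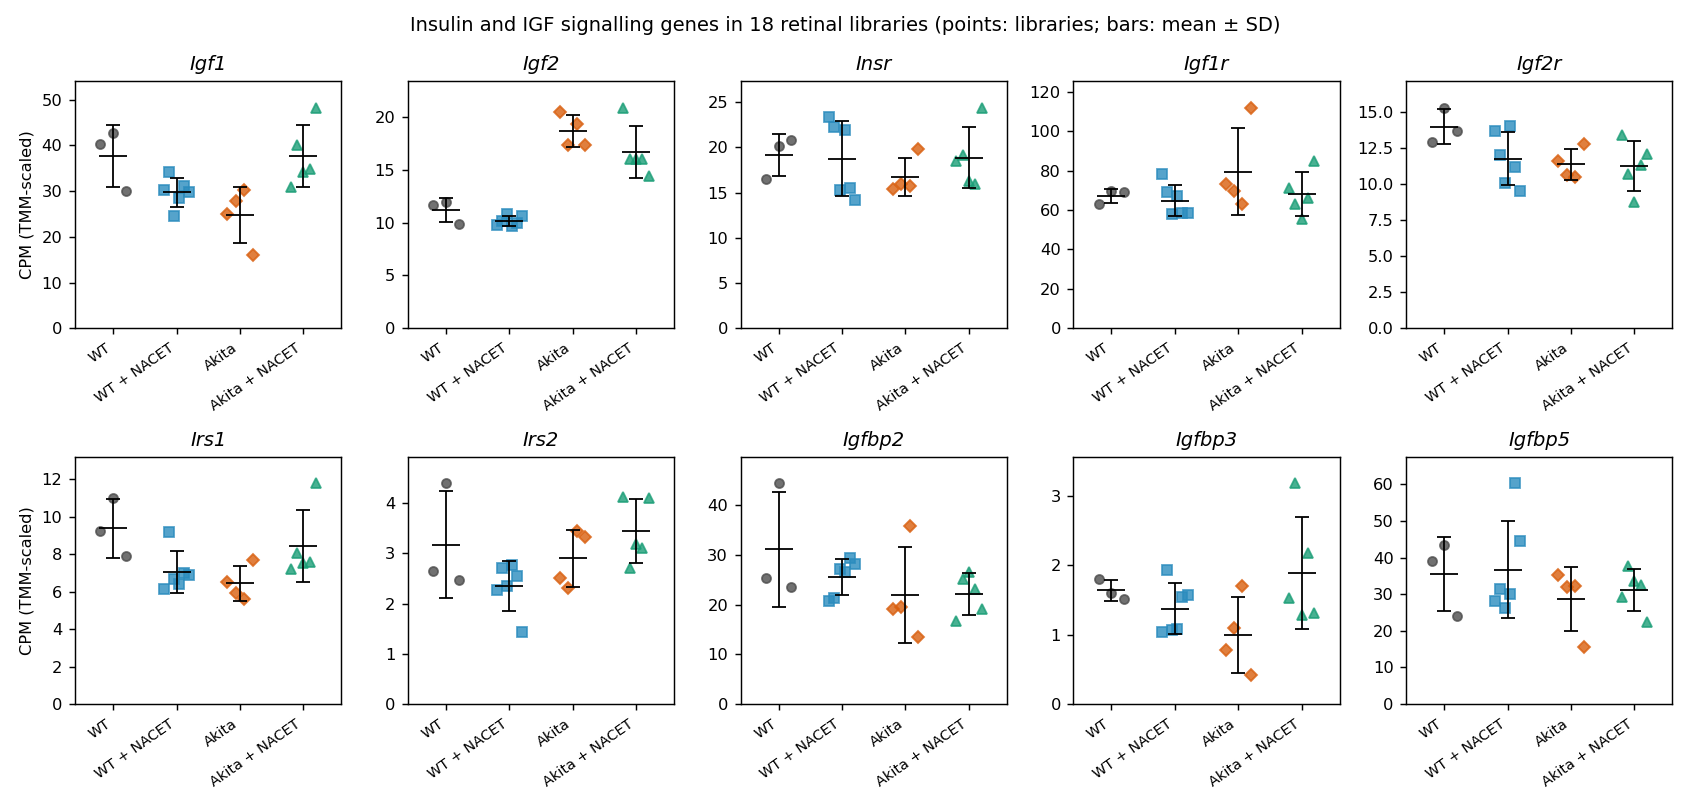
CPM of the 10 genes in every library (points) with the mean and SD of each group (bars) for WT, WT + NACET, Akita and Akita + NACET, each panel on its own linear axis from 0. All 9 Akita libraries lie above all 9 WT libraries for Igf2, and for Igf1 the Akita group is lowest, with Akita + NACET and WT at like means of 37.7 and 37.8 CPM.

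Igf1, the ligand of the receptor encoded by Igf1r and a survival factor for retinal neurons, had a different pattern. It was 30.1 to 42.8 CPM in WT (40.4, 42.8 and 30.1 CPM) and 24.9, 27.8, 30.3 and 16.1 CPM in Akita. Only the highest Akita library reached the lowest WT library, and the lowest of all was Akita replicate 4. On the log2 scale the difference was -0.60 ± 0.18 (SE, adjusted p = 0.0451). This call stood just under the threshold and was lost in 9 of 16 alternative fits, such as those without Akita replicate 4 (-0.45, adjusted p = 0.113), without Akita replicate 1 (-0.60, adjusted p = 0.0737), without WT replicate 1 (-0.55, adjusted p = 0.176) and without WT replicate 2 (-0.50, adjusted p = 0.177).

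The second comparison asked what NACET changed in diabetic mice. Igf1 was the 1 member called in Akita + NACET vs Akita, where 9.65% of tested genes were called, and where 1 gene was called without Akita replicate 4. Its levels in Akita + NACET were 31.0, 40.0, 34.2, 34.9 and 48.3 CPM. All 5 lay above all 4 Akita libraries, by 1.52-fold in the fit (log2 fold change 0.60 ± 0.16, adjusted p = 0.0291). This comparison shares its Akita libraries with Akita vs WT, so that a low Akita library enters both. Without Akita replicate 4 the log2 fold change was 0.45 (adjusted p = 0.0850), without Akita replicate 1 it was 0.60 (adjusted p = 0.0547), and without Akita + NACET replicates 2 and 5 it was 0.58 (adjusted p = 0.0646) and 0.50 (adjusted p = 0.0841).

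The third comparison asked what NACET changed in mice without diabetes. With edgeR, 0 of the 10 members were called in WT + NACET vs WT, where 1.48% of tested genes were, and 1 member, Irs1, had an unadjusted p under 0.05. DESeq2 also called 0, with all groups or with these groups alone. Igf1 had a low of 24.5, a median of 30.1 and a high of 34.1 CPM in WT + NACET, below WT in its mean (29.8 ± 3.15 against 37.8 ± 6.75 CPM) with overlap. The log2 fold change was -0.34 ± 0.16 (adjusted p = 0.256). The effect of NACET on Igf1 differed between genotypes, by 0.94 ± 0.23 on the log2 scale (adjusted p = 0.0100). Here 2 of the 10 members were called, the other being Irs1, where 20.3% of tested genes were. In Akita + NACET vs WT + NACET its log2 fold change was 0.34 ± 0.14 (adjusted p = 0.109), called only with these groups alone in the fit (adjusted p = 0.0457 with edgeR and 0.0289 with DESeq2). The interaction for Igf1 kept its call without each library in turn and was lost once the non-exonic share of reads entered the model (0.42, adjusted p = 0.703).

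The non-exonic share moved with Igf1. Reads outside annotated exons made up 16.5% ± 1.26 (SD, n = 3) in WT, 12.9% ± 2.77 (n = 6) in WT + NACET, 11.6% ± 1.85 (n = 4) in Akita and 16.6% ± 2.13 (n = 5) in Akita + NACET, high in WT and Akita + NACET and lowest in Akita, as the means of Igf1 were. The share in Akita (9.79% to 13.4%) did not overlap that in WT (15.1% to 17.3%) or Akita + NACET (14.4% to 20%). A fit with the share can therefore hardly separate it from these group differences. For the interaction, such a fit called 13 of all tested genes rather than 3289. With this share in the fit Igf1 was at -0.30 in Akita vs WT (adjusted p = 0.533) and at 0.29 in Akita + NACET vs Akita (adjusted p = 0.687). Markers of amacrine cells, which are retinal interneurons, moved in the same comparisons. Of the 7, none was at 0, 6 were lower in Akita than in WT and 3 were higher in Akita + NACET than in Akita. Their summed level was 633 to 836 CPM in WT, 495 to 679 in WT + NACET, 393 to 554 in Akita and 591 to 730 in Akita + NACET. Of the 8 rod markers, 3 were higher in Akita than in WT and 5 were lower in Akita + NACET than in Akita. Of the 7 microglia markers, 0 were called in these comparisons and none was at 0. Their sums were 35.3 to 52.7 CPM in WT, 47.9 to 69.8 in WT + NACET, 25.4 to 46.1 in Akita and 25.7 to 44.5 in Akita + NACET. Called in the same comparisons were also 1 of 10 endothelium markers (lower in Akita than in WT) and 1 (higher in Akita + NACET than in Akita), and likewise 1 and 2 of the 8 markers of pericytes and smooth muscle. Of the 7 Mueller glia markers 1 was lower in Akita than in WT. In Akita + NACET vs Akita, 3 of 6 cone markers were lower and 2 of 5 red blood cell markers were higher. In Akita + NACET vs WT + NACET, 4 of the 7 microglia markers were called lower. The part of these cell types in the Igf1 result was not tested.

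**Figure D3:**
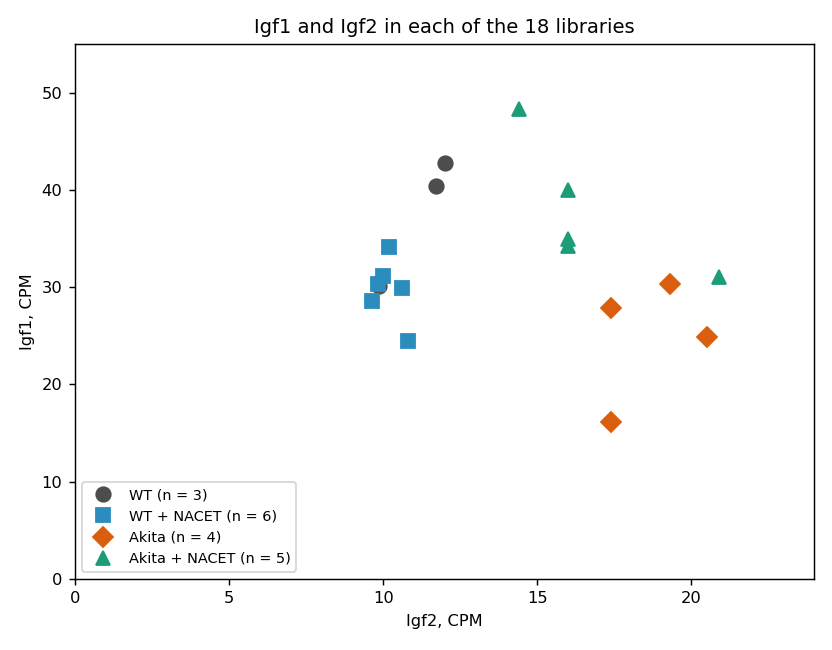
Igf1 against Igf2 in CPM for each of the 18 libraries, with the symbol giving the group. Igf2 on the horizontal axis parts the 9 Akita libraries from the 9 WT libraries, while Igf1 on the vertical axis sets Akita (16.1 to 30.3 CPM) below Akita + NACET (31.0 to 48.3 CPM).

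Across the 18 libraries Igf1 and Igf2 were nearly unrelated (Pearson r of log2 CPM -0.16), as the plot of one against the other shows. The member closest to Igf1 was Igfbp3 (r = 0.76), followed by Irs1 (r = 0.60). Igf1r ran opposite to Igfbp5 (r = -0.73) and Igfbp2 (r = -0.67). Among all tested genes, those most like Igf1 were Ralgds (r = 0.93), an exchange factor for Ral GTPases, and Ddr1 (r = 0.92), a collagen receptor kinase. Those most like Igf2 were Tmem106a (r = 0.91) and the clock gene Cry1 (r = 0.87). These correlations describe libraries that share groups, depth and composition.

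With edgeR, no receptor gene was called in any comparison. Insr, the insulin receptor gene, stood at 19.2 ± 2.34 CPM in WT, 18.8 ± 4.20 in WT + NACET, 16.7 ± 2.06 in Akita and 18.9 ± 3.42 in Akita + NACET. Its log2 fold change in Akita vs WT was -0.20 (95% interval -0.58 to 0.18, adjusted p = 0.503). The means thus lay within the spread of the libraries, though changes of up to the ends of this interval are not excluded. In Akita it was 15.4 to 19.8 CPM, with replicate 4 apart from the others.

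Igf1r, the receptor for Igf1 and the member with the highest receptor level, was 67.3 ± 3.61 CPM in WT and 79.4 ± 22.1 CPM in Akita. The wide Akita spread came from replicate 4 at 112 CPM, above the other 17 libraries, which reached at most 84.9 CPM. Its log2 fold change was 0.24 (95% interval -0.11 to 0.58, adjusted p = 0.371). WT + NACET (64.8 ± 8.04 CPM) and Akita + NACET (68.1 ± 11.0 CPM) stood near WT, and the log2 fold change of Akita + NACET vs Akita was -0.22 (95% interval -0.52 to 0.08, adjusted p = 0.324).

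Igf2r, which clears IGF-2, stood at 12.9, 15.3 and 13.7 CPM in WT. In Akita it stood at 11.6, 10.6, 10.5 and 12.8 CPM, just below all WT libraries. How many of all tested genes were so separated was not counted. The log2 fold change of -0.29 ± 0.16 did not pass the test (adjusted p = 0.229). WT + NACET (11.7 ± 1.82 CPM) and Akita + NACET (11.2 ± 1.72 CPM) had means like that of Akita. Against WT, Akita + NACET had a log2 fold change of -0.31 ± 0.15 (adjusted p = 1).

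Of the adaptor genes, Irs1 followed a pattern near that of Igf1. It was 9.26, 11.0 and 7.89 CPM in WT. In Akita it was 6.52, 5.96, 5.59 and 7.71 CPM, without overlap between the groups, though the share of such genes among all tested was not counted. A log2 fold change of -0.54 ± 0.19 missed the threshold (adjusted p = 0.0731), except without WT replicate 3 (-0.67, adjusted p = 0.0487). In WT + NACET it had a low of 6.14, a median of 6.78 and a high of 9.22 CPM, and in Akita + NACET it was 7.24, 8.07, 7.53, 7.58 and 11.8 CPM. The libraries with the highest values, replicate 2 of WT + NACET and replicate 5 of Akita + NACET, stood apart from the rest of their groups.

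NACET was followed by lower Irs1 in WT (log2 fold change -0.41 ± 0.17, adjusted p = 0.194) and higher Irs1 in Akita (0.39 ± 0.17, adjusted p = 0.125), neither called on its own. The difference of the effects was called at 0.80 ± 0.24 on the log2 scale (adjusted p = 0.0246). It was lost without WT replicate 1 (0.81, adjusted p = 0.0535), without WT replicate 2 (0.67, adjusted p = 0.0862) and with the non-exonic share in the model (0.27, adjusted p = 0.831). The exons of Irs1 and Irs2 overlap genes on the other strand, Gm9747 (0 counts in every library) and 9530052E02Rik (0 to 6 counts), which counting without strand could not separate.

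Irs2, the adaptor that falls when insulin signalling is high in liver, was 3.17 ± 1.06 CPM in WT, 2.35 ± 0.492 in WT + NACET, 2.90 ± 0.566 in Akita and 3.45 ± 0.640 in Akita + NACET. Its largest difference was in Akita + NACET vs WT + NACET, with a log2 fold change of 0.55 ± 0.20 that missed the threshold (adjusted p = 0.0729). The 5 Akita + NACET libraries were at 4.13, 2.71, 3.19, 3.11 and 4.11 CPM, and the highest WT + NACET library at 2.78 CPM reached into them. DESeq2 with these groups alone called it (adjusted p = 0.0482).

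**Figure D4:**
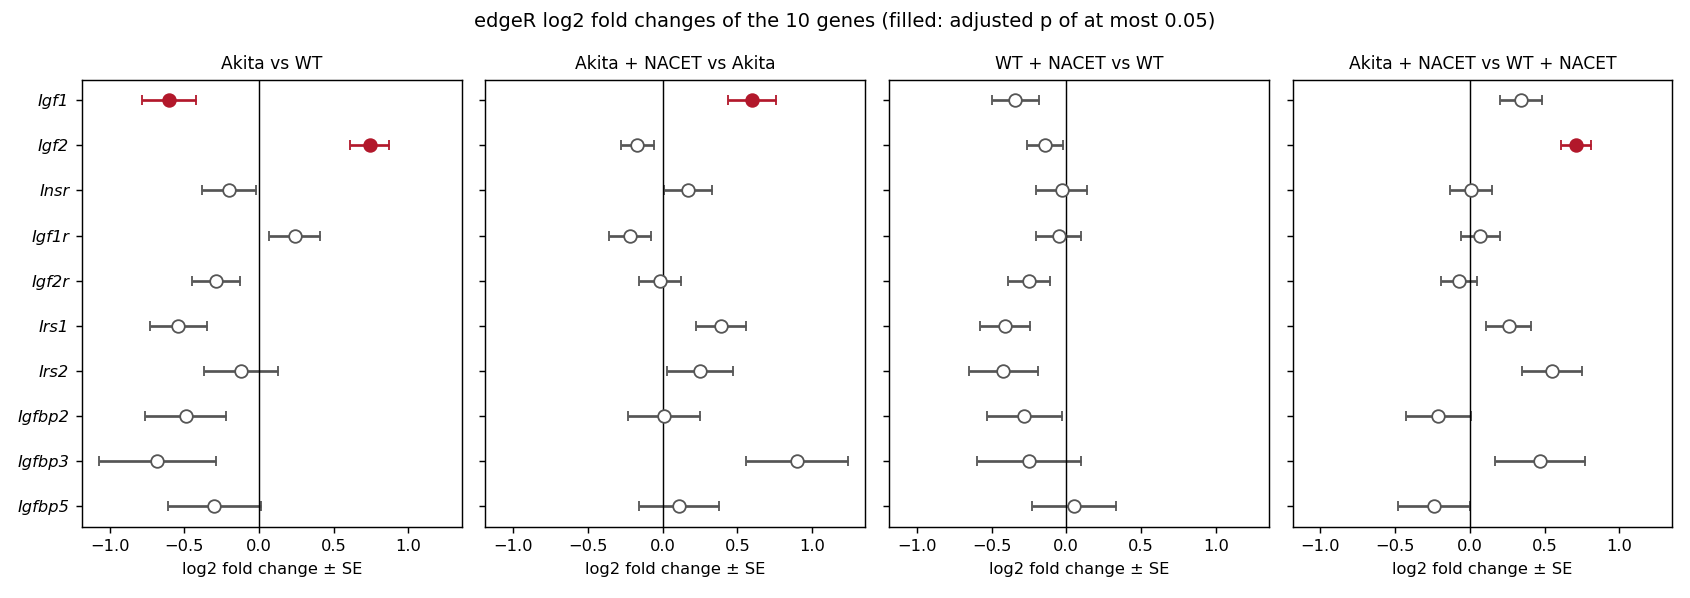
Log2 fold changes (points) with their SE (bars) from edgeR for the 10 genes in 4 comparisons, filled where the adjusted p is at most 0.05. Igf2 is at 0.74 and 0.71 in the comparisons of Akita with WT without and with NACET, and Igf1 is at -0.60 in Akita vs WT and at 0.60 in Akita + NACET vs Akita.

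None of the binding protein genes was called by edgeR with all libraries in any comparison. Igfbp3, whose product carries most IGF in blood, was the least expressed member, with 5 to 54 counts per library. It was 0.771, 1.10, 1.70 and 0.414 CPM in Akita and 1.52, 3.18, 1.28, 2.17 and 1.31 CPM in Akita + NACET. The ranges overlapped through Akita replicate 3, the highest of its group. The log2 fold change of 0.90 ± 0.34 was the largest of any member for NACET in Akita and missed the threshold (adjusted p = 0.0916), and without Akita replicate 3 it was 1.27 (adjusted p = 0.0444). In WT it stood at 1.63 ± 0.148 CPM, and in Akita vs WT the log2 fold change was -0.68 (95% interval -1.49 to 0.13, adjusted p = 0.271).

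Igfbp2 and Igfbp5, which lie next to each other on chromosome 1 (mm9 chr1:72871077-72899048 on the plus strand and chr1:72904506-72921458 on the minus strand), varied more between libraries of a group than between groups. Igfbp2 was 25.4, 44.4 and 23.6 CPM in WT and 19.1, 19.6, 35.7 and 13.4 CPM in Akita, with a log2 fold change of -0.49 (95% interval -1.06 to 0.08, adjusted p = 0.251). Without Akita replicate 3 it was -0.83 (adjusted p = 0.0364). One library of each group stood high, WT replicate 2 and Akita replicate 3. Igfbp5 ranged from 15.7 CPM in Akita replicate 4 to 60.3 CPM in a WT + NACET library, and its log2 fold change in Akita vs WT was -0.30 (95% interval -0.95 to 0.35, adjusted p = 0.559). For Igfbp2 the most similar pattern over the libraries was that of Npy, the gene of neuropeptide Y (r = 0.87), and for Igfbp5 that of Arhgdia (r = 0.94).

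When treated diabetic mice were set against untreated WT mice, the Igf1 difference of the untreated diabetic group was not seen. The log2 fold change of Igf1 in Akita + NACET vs WT was -0.00 (95% interval -0.36 to 0.35, adjusted p = 1), with means of 37.7 ± 6.76 and 37.8 ± 6.75 CPM. Igf2 remained higher by value, at 16.6 ± 2.46 against 11.2 ± 1.15 CPM, with a log2 fold change of 0.57 ± 0.12 at position 5 by p. In this comparison edgeR called 0 of the 10 members (adjusted p = 0.436 for Igf2) and 0.00618% of tested genes, a single gene, and 2 members, Igf2 and Igf2r, had an unadjusted p under 0.05. DESeq2 with all groups called 1 member, Igf2 (0.58, adjusted p = 0.0235), and with these groups alone it called 0 (adjusted p = 0.180 for Igf2).

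Other genes of the pathway were read from a list of 82, of which 74 were tested. In Akita vs WT 5 of the 74 were called, 2 higher and 3 lower, a share near the 7.64% of all tested genes, and the list had a median log2 fold change of -0.08 against -0.01 for all genes. The adaptor genes Shc2 (-1.37 ± 0.37, adjusted p = 0.0338) and Sh2b2 (-1.91 ± 0.54, adjusted p = 0.0377) were lower. Sh2b2 was scarce, at 0.719 to 2.15 CPM in WT and 0.116 to 0.753 CPM in Akita, so its fold changes rest on few counts. Igf2bp3, whose product binds the messenger RNA of Igf2, was also lower (-0.97 ± 0.27, adjusted p = 0.0356). Higher were Tsc2, an inhibitor of mTOR signalling (0.31 ± 0.09, adjusted p = 0.0405), and Pik3r1, a regulatory subunit of PI3K (0.41 ± 0.12, adjusted p = 0.0419). All 5 calls were lost when WT replicate 1, WT replicate 2 or Akita replicate 4 was left out and when the non-exonic share entered the model, each of which called 0 of the 74. It was 3 without Akita replicate 1 and 2 without Akita replicate 3.

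Of the 74, 4 were called in Akita + NACET vs Akita, 3 higher and 1 lower, where 9.65% of all tested genes were, with a list median of 0.04. Shc2 (1.13 ± 0.34, adjusted p = 0.0424), Sh2b2 (1.83 ± 0.49, adjusted p = 0.0300) and Socs2, a feedback inhibitor of growth hormone and IGF signalling (0.80 ± 0.22, adjusted p = 0.0316), were higher, and Tsc2 was lower (-0.32 ± 0.08, adjusted p = 0.0218). The same Akita libraries enter both comparisons. The count was 0 when Akita replicate 4 or Akita + NACET replicate 5 was left out and when the non-exonic share entered the model. It was 2 without Akita replicate 1, Akita replicate 3 or Akita + NACET replicate 2.

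In WT + NACET vs WT 1 of the 74 was called, where 1.48% of all tested genes were. This was Inpp5k, a phosphoinositide phosphatase that limits insulin signalling (0.45 ± 0.10, adjusted p = 0.0259). It was lost without WT replicate 1, 2 or 3, without WT + NACET replicate 3 and with the non-exonic share in the model. In Akita + NACET vs WT + NACET 9 were called, 6 higher and 3 lower, a share near the 13.3% of all tested genes. By p the leading genes were the cytokine signalling inhibitor Socs3 (-0.98 ± 0.18, adjusted p = 0.00290) and Trib3, which encodes an AKT inhibitor induced by cell stress (0.96 ± 0.19, adjusted p = 0.00385). Also called were Sos2, an exchange factor of the adaptor group (0.55 ± 0.15, adjusted p = 0.0234), and Slc2a4, the insulin-responsive glucose transporter (-1.03 ± 0.29, adjusted p = 0.0248). None of these named genes was called in Akita vs WT. Their log2 fold changes there were -0.08 ± 0.23 for Socs3 and -0.04 ± 0.24 for Trib3. For Sos2 and Slc2a4 they were 0.12 ± 0.19 and -0.27 ± 0.39. Among the group means, Socs3 and Slc2a4 were highest in WT + NACET. Trib3 and Sos2 were lowest in WT + NACET and highest in Akita + NACET. The count for Akita + NACET vs WT + NACET was 5 without WT + NACET replicate 3 or without Akita + NACET replicate 4. It was 2 without Akita + NACET replicate 5 or with the non-exonic share in the model.

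With edgeR 0 of the 74 were called in Akita + NACET vs WT, with 2 at an unadjusted p under 0.05, and both DESeq2 fits also called 0. The effect of NACET differed between genotypes for 12 of the 74, 8 toward a higher value in Akita and 4 toward a lower one, where 20.3% of all tested genes were called. Shc2 (1.97 ± 0.47, adjusted p = 0.00990), Inpp5k (-0.54 ± 0.13, adjusted p = 0.0114), Socs2 (1.24 ± 0.31, adjusted p = 0.0118), Stc1 (1.54 ± 0.39, adjusted p = 0.0133) and Sh2b2 (2.50 ± 0.67, adjusted p = 0.0147) led by p. With WT replicate 1 left out 5 were called, with WT replicate 3 left out 6, and 0 with the non-exonic share in the model. In the contrast of both Akita with both WT groups 2 were called, a share near the 2.65% of all tested genes. These were Rps6kb1, the S6 kinase gene (0.25 ± 0.06, adjusted p = 0.0411), and Pik3r2, another PI3K subunit (0.26 ± 0.07, adjusted p = 0.0461). This count was 0 when WT replicate 1 or 2, WT + NACET replicate 3, 4, 5 or 6, Akita replicate 4, or Akita + NACET replicate 2, 4 or 5 was left out. It was 1 without WT + NACET replicate 2, Akita replicate 1 or Akita + NACET replicate 1.

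**Figure D5:**
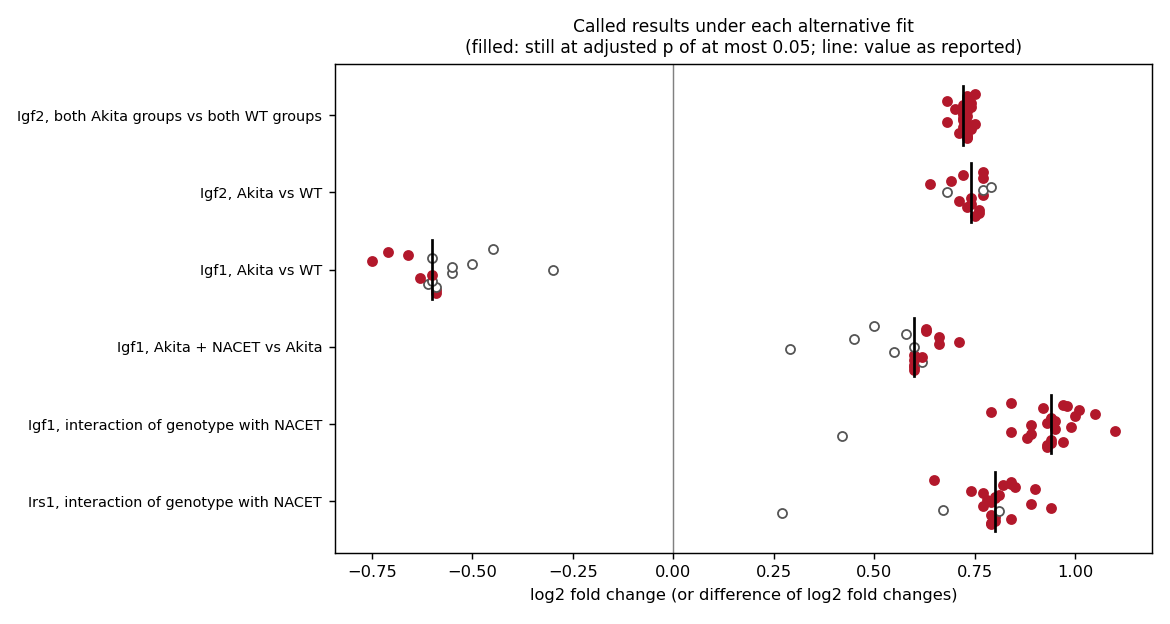
Log2 fold change of the called Igf1, Igf2 and Irs1 results under each alternative fit (points, filled where the adjusted p is still at most 0.05), with the reported value as a line. Igf2 in both Akita against both WT groups, a contrast chosen after the values were seen, stays filled throughout at 0.68 to 0.75. Igf1 in Akita vs WT ranges from -0.75 to -0.30 and is open in 9 of 16 fits.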

How the data were processed

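According to the methods, the authors made TruSeq RNA v2 libraries from poly(A) RNA, read them single end on a NextSeq 500, aligned them to mm9 with TopHat2 2.1.0 and counted exon reads per gene with HTSeq 0.11.2, without strand. The deposited values are raw counts, 1 file per library. The gene annotation used is not given in the sources used here; places and lengths come from GENCODE M1 on mm9. An entry without a name (0.0054% of counts on average) and 206 ribosomal RNA genes (0.977%) were removed. Replicate pairs differed by more than sampling noise (chi-square per degree of freedom of 4.83 or more).

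Groups came from the sample titles. The test was edgeR 4.0.16 in R 4.3.3 (quasi-likelihood F, TMM, minimum count 10, minimum total 15, robust), with all 18 libraries in 1 fit, Benjamini-Hochberg adjustment over 16183 genes and an SE derived from F. The biological coefficient of variation was 0.186. The script was tested on simulated data. Intervals cover 95%. Correlations use log2 CPM with a prior count of 2. Alternatives were DESeq2 1.42.0 (with all groups or 2), DESeq2 size factors, edgeR with 2 groups, no filter, a mean count of at least 50, ribosomal RNA genes kept, a replicate block, the non-exonic share of reads as a covariate, and each library left out. The members, gene lists and tests were chosen with earlier results of these data known. Besides all members, the text names up to 5 called pathway genes per contrast by p and the genes most correlated with a member. A gene that met this rule is not reported here.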

Additional observations from a re-analysis of the deposited data

Results flagged for a closer look

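A single library stood far from the rest of its group, by Dixon's criterion at 95%, in 5 of the 30 sets of values tested, where chance marks about 1 in 20. Igf2 was 20.9 CPM in Akita + NACET replicate 1, against 14.4 to 16 CPM in the other 4 libraries. Akita replicate 4 was marked for Insr, at 19.8 CPM, and for Igfbp5, at 15.7 CPM. Irs1 was marked at 9.22 CPM in WT + NACET replicate 2 and at 11.8 CPM in Akita + NACET replicate 5.

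For Igf1 the change with NACET was not the same in both genotypes, with a difference of 0.94 on the log2 scale (edgeR interaction, adjusted p = 0.0100), and so for Irs1, with a difference of 0.80 (adjusted p = 0.0246). The sign was the same for both, with lower means after NACET in WT and higher means after NACET in Akita. These were 2 of the 10 members, where 20.3% of all tested genes were called. Both calls were lost with the non-exonic share in the model (adjusted p = 0.703 for Igf1 and 0.831 for Irs1). That fit called 13 of all tested genes for the interaction rather than 3289, so the loss was not particular to these members. The Irs1 call was also lost without WT replicate 1 or 2.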

How the results depend on the processing

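Of the 7 called results among the members, 2 kept their call in all alternatives. These were Igf2 in Akita + NACET vs WT + NACET and Igf2 in both Akita vs both WT groups. The latter contrast was chosen after the Igf2 values were seen and uses the same libraries, so it is not a separate result. None of the 7 changed sign as a call. Of 63 results that were not called, 8 were called in at least 1 alternative. In Akita vs WT the number of members called was 2, and it was 1 with DESeq2 or edgeR on the 2 groups alone, 1 without a filter, 1 with the replicate block, 0 with the non-exonic share of reads as a covariate, and 0 to 3 without single libraries (3 without WT replicate 3, with Irs1, or without Akita replicate 3, with Igfbp2). In Akita + NACET vs Akita it was 1, and it was 0 with edgeR on the 2 groups, 0 with the replicate block, 0 with the covariate and 0 to 2 without single libraries. DESeq2 with all groups called 1 member rather than 0 in Akita + NACET vs WT. In Akita + NACET vs WT + NACET the number was 1, and it was 3 with DESeq2 and 2 with edgeR on the 2 groups. For the interaction it was 2, 0 with the covariate and 1 to 3 without single libraries, the third being Igfbp3 without Akita replicate 3. In the contrast of both Akita with both WT groups it was 1, and 1 to 2 without single libraries, the second being Igfbp2 without Akita replicate 3. The causes of these changes were not tested. WT + NACET vs WT had 0 members called in all its alternatives. Among the 74 other pathway genes, DESeq2 with all groups called 11 rather than 5 in Akita vs WT, 7 rather than 4 in Akita + NACET vs Akita and 7 rather than 2 in the contrast of both Akita with both WT groups, where edgeR on the 2 groups called 1 and 2 in the first pair and the replicate block called 1, 0 and 0. Over all genes, the 1237 called in Akita vs WT became 2078 with DESeq2 and all groups, 148 with edgeR on the 2 groups and 0 with the covariate, and the 1562 of Akita + NACET vs Akita became 2391, 700 and 0. Without single libraries the first count was 0 (WT replicate 1 or 2) and 234 (Akita replicate 4) at the low end, and the second was 1 (Akita replicate 4), 101 (Akita + NACET replicate 5), 425 (Akita + NACET replicate 2), 808 (Akita replicate 1), 872 (Akita + NACET replicate 4) and 992 (Akita replicate 3).

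The replicate numbers did not pair the samples. Deviations of libraries with the same number correlated above 0.1 in 4 of 22 pairs, against 26 of 97 pairs with different numbers, and 2 of 18 libraries were closest to their own number in another group. With the replicate block, Igf1 was at -0.55 in Akita vs WT (adjusted p = 0.0717) and at 0.55 in Akita + NACET vs Akita (adjusted p = 0.0574). Among the members, depth limits Igfbp3 most, with 5 to 54 counts per library. Groups of 3 to 6 libraries leave intervals of about 1 log2 unit or more for the binding protein genes.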
